A study of Mus musculus with 39 samples.

Results

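The genes described here are 10 members of the epidermal growth factor (EGF) pathway. They comprise the 4 EGF receptor genes *Egfr*, *Erbb2*, *Erbb3* and *Erbb4*, the ligand genes *Areg* and *Hbegf*, the leucine-rich repeat genes *Lrig1*, *Lrig2* and *Lrig3*, and the receptor inhibitor gene *Errfi1*. They were taken by symbol from the count tables, and all 10 were found among the 47643 genes listed in each. The 10 were selected on earlier results of these counts, that is, on the measured levels and fold changes of the same libraries, and which contrast led to the choice was not recorded. For that reason every fold change and adjusted p below is a description of the fit and not independent support for it.

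Bulk RNA-seq was available for 35 epiblasts and 4 epiblast stem cell (EpiSC) lines of mice. Each epiblast was a single embryo's, from *inter se* mating of *Stat3* heterozygotes on the CD1 background, dissected free of extraembryonic ectoderm and visceral endoderm. At embryonic day (E) 5.5, 2 epiblasts were WT and 4 were *Stat3* null. The E6.5 groups held 9 and 8, and the E7.5 groups 9 and 3. In the null allele, a germline deletion, a neomycin resistance gene takes the place of some exons, so all cells of a null embryo carry it and reads on the other exons still count towards *Stat3*. EpiSCs, cultured self-renewing cells derived from E6.5 or E7.5 epiblasts and grown with FGF2, Activin A and the Wnt pathway inhibitor XAV, came from 2 null and 2 WT lines. Each line is 1 library, so the spread between lines cannot be told apart from that between cultures.

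EGF receptors are tyrosine kinases of the cell surface that pair up when a ligand binds, and then signal through adaptors to the RAS-ERK and PI3K pathways. EGFR and ERBB4 bind ligands and have active kinases, ERBB2 has no known ligand and serves as a partner, and ERBB3 binds neuregulins but has little kinase activity of its own. LRIG1 promotes the removal of these receptors from the surface and ERRFI1 (also called MIG6) binds and blocks their kinase domain. In the early mouse embryo the pathway is best known from the trophoblast and placenta, which fail in many *Egfr* mutants, and from implantation, where HBEGF acts between uterus and blastocyst.

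Total counts lay between 22941210 and 79013960 in the epiblast libraries and between 63445877 and 127583699 in EpiSCs, and levels are given as CPM, which are counts scaled to the same library total after TMM normalization. The value of 3 counts was 0.0399 to 0.130 CPM in the former and 0.0233 to 0.0470 CPM in the latter. *Stat3*, the targeted gene, was at 9.47 to 22.6 CPM in null against 38.6 and 51.1 CPM in WT at E5.5, 1.42 to 7.99 against 5.62 to 28.6 at E6.5, and 1.24 to 1.5 against 4.69 to 24.7 at E7.5, and in EpiSCs at 3.15 and 3.50 against 18.2 and 22.8 CPM, so that null and WT overlapped at E6.5 alone. The epiblast marker *Pou5f1* was counted in all libraries, at 0.673 CPM in E5.5 null 1 and above 100 CPM elsewhere. By markers 4 libraries stood apart from the others of their group. E5.5 null 1 went against its label, with *Otx2*, another epiblast marker, at 0 and 5 of 8 visceral endoderm markers at 0. It and E6.5 null 1 had the highest sums of 6 extraembryonic ectoderm markers (among them *Elf5* and *Wnt7b*), 827 and 663 CPM, against 232 to 269 CPM in E5.5 null 2, null 4 and WT 1 and at most 36.7 CPM elsewhere. E6.5 WT 3 had 5398 CPM of the visceral endoderm markers (*Afp*, *Ttr*, *Apoa1*, *Apoa4*, *Apob*, *Amn*, *Cubn* and *Rbp4*) against 45.9 to 1536 CPM in the other WT of its stage, although 3 E6.5 nulls also had high sums (6347 CPM in null 3, 4260 in null 4 and 3938 in null 8). E7.5 WT 3 had 5737 CPM of 5 epiblast markers against 1081 to 2987 CPM in the other E7.5 WT. Markers of decidua and maternal blood summed to at most 26.4 CPM in any library. Fold changes of the members that rest on these libraries are given with and without them. Levels per kilobase, correlations and fits of other genes are given with them only. In bulk RNA, fewer cells of a type and less RNA per cell cannot be told apart.

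Per length of transcript, *Erbb3* was the highest of the 10 genes in E6.5 WT epiblasts, at 8.72 ± 1.49 CPM per kilobase of exon (SD, n = 9). *Lrig3* followed with 6.26 ± 1.64, *Errfi1* with 5.71 ± 1.32, *Erbb2* with 4.04 ± 1.23, *Lrig1* with 3.31 ± 0.629 and *Lrig2* with 1.57 ± 0.478. *Egfr* (0.194 ± 0.359) and *Hbegf* (0.189 ± 0.171) lay well below, and *Areg* (0.0488 ± 0.146) and *Erbb4* (0.0111 ± 0.0258) were close to nothing. Of neighbours in this order, *Lrig3* and *Errfi1*, *Erbb2* and *Lrig1*, *Egfr* and *Hbegf*, and the genes after them differed by less than the larger of their SDs. At E7.5 the WT order was led by *Lrig1* at 10.7 ± 3.20 CPM per kilobase (n = 9), with *Lrig3* (8.60 ± 1.76) and *Erbb2* (8.44 ± 2.38) within their SDs of each other, ahead of *Errfi1* (6.34 ± 0.815) and *Erbb3* (4.96 ± 1.11). The E7.5 null order instead began with *Lrig3* (7.12 ± 0.172, n = 3) and *Erbb3* (5.78 ± 1.68), and *Lrig1* came behind *Errfi1* and *Erbb2* at 4.53 ± 0.308. At E5.5 *Errfi1* headed the list in both genotypes, with 17.9 ± 8.07 CPM per kilobase in WT (n = 2) and 28.5 ± 18.5 in null (n = 4). Its lead over *Erbb3* was within the larger SD in both. So were, in E7.5 WT, the leads of *Lrig1* over *Lrig3* and of *Erbb2* over *Errfi1*. The same held for the steps between the first 5 genes in E7.5 null.

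**Figure D1:**
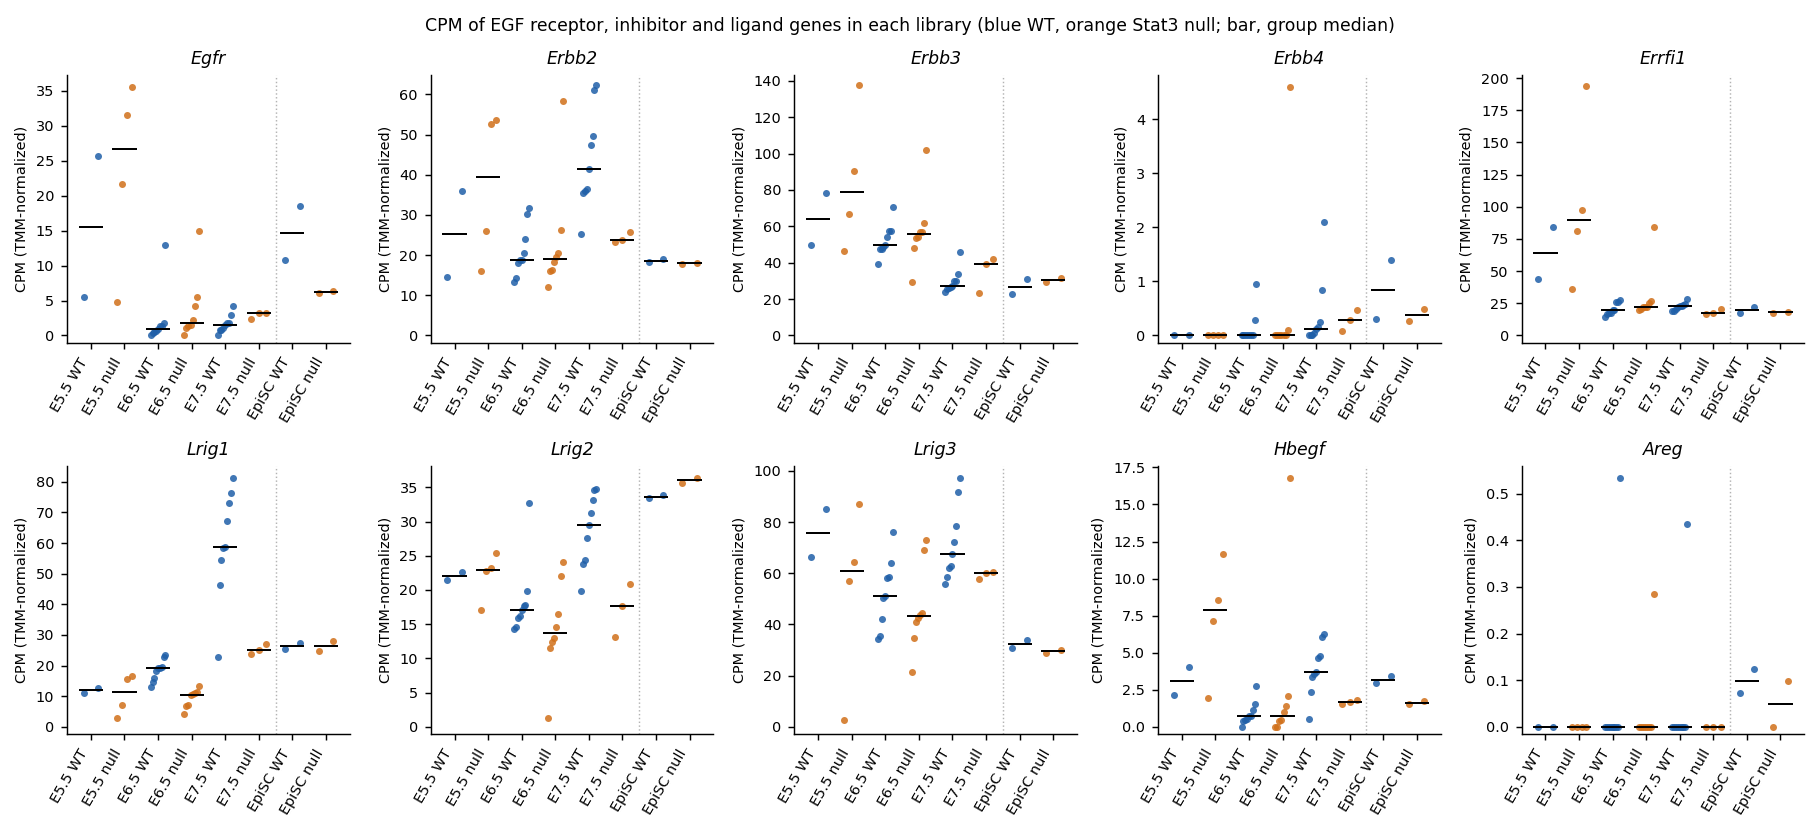
TMM-normalized CPM (linear axis, one scale per gene) of the 10 genes in each of 35 epiblast and 4 EpiSC libraries, WT in blue and Stat3 null in orange, with a bar at each group's median. EpiSC libraries, right of the dotted line, were normalized apart. Lrig1 is highest in E7.5 WT (median 58.8 CPM), Errfi1 and Egfr are highest at E5.5, and Areg stays at 0.533 CPM or below in every library.

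Promoter sequences are shown for 3 of the genes with a call between groups, since the deleted gene codes for a DNA-binding factor whose family's consensus is TTCNNNGAA (searched on both strands). They are the 250 bases before a RefSeq start in GRCm38.p6, written 5′ to 3′ on the gene's strand, with capitals at GGGCGG or its reverse complement CCGCCC, the GC box, overlapping matches being counted separately. *Lrig1* is on chromosome 6 (chr6:94700146-94700395, minus strand), *Erbb2* on chromosome 11 (chr11:98412234-98412483, plus strand) and the second of the *Errfi1* starts on chromosome 4 (chr4:150854820-150855069, plus strand).
Lrig1: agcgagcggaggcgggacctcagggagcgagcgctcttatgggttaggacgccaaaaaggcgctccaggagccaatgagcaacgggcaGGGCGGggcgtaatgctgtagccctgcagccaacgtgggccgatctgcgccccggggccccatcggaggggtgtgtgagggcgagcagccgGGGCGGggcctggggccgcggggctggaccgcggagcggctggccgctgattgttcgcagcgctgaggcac
Erbb2: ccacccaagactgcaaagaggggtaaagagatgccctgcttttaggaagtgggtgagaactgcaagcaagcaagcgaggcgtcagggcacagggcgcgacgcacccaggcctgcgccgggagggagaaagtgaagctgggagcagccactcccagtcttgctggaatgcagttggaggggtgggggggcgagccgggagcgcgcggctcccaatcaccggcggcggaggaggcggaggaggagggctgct
Errfi1: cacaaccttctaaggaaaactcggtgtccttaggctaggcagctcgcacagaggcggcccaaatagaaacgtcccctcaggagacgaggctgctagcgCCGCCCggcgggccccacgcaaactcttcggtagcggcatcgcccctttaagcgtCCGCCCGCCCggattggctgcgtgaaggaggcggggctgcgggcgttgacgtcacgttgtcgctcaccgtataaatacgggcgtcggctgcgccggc
*Lrig1* held 2 GC boxes, the second *Errfi1* start 3 and *Erbb2* 0. Of these the second *Errfi1* start alone also held TATAAA, once, near its 3′ end. The first *Errfi1* start, not shown, held 0 of either, at 38.0% GC against 64.8% in the second. For 8 of the members 9 promoters were read, and none was read for *Erbb3* or *Hbegf*. TTCNNNGAA was in 0 of the 9, against 7.02% of 32851 mouse promoters of the same length. GGGCGG was in 6 of the 9 against 32.7%, and TATAAA in 2 of the 9 against 12.4%. These are descriptions of this window only.

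In WT epiblasts the stage series began with a fall of *Errfi1*, which codes for the inhibitor of the receptors' kinase domain. It was counted at 84.6 and 43.7 CPM at E5.5, and at E6.5 at 14.5 CPM at the lowest, 19.7 at the median and 27.7 at the highest of 9 libraries. Both E5.5 libraries lay above all 9 of E6.5. By edgeR's quasi-likelihood test its log2 fold change (log2FC) was -1.63, with a standard error (SE) of 0.24 and an adjusted p of 0.00188 (Benjamini-Hochberg over all genes), a level 3.09-fold lower. A gene was called where the log2FC lay above 1 or below -1 and the adjusted p under 0.05. Of 9 members tested *Errfi1* alone was called, beside 5.15% of all 20763 genes in either direction and 2.63% called lower. The call was lost without E5.5 WT 1 (log2FC -1.13, adjusted p = 0.125) and kept without each of the other 10 libraries.

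Null epiblasts showed *Errfi1* at 194, 81.5, 35.8 and 97.6 CPM at E5.5 and at 19.6 (lowest), 22.2 (median) and 84.0 CPM (highest) at E6.5. The groups overlapped through E6.5 null 1, the library at 84.0 CPM, since the other 7 nulls of that stage reached at most 27.1 CPM. The log2FC was -1.75 (SE 0.44, adjusted p = 0.0470), again the only call among 8 members tested, beside 1.98% of 18352 genes in either direction and 0.757% called lower. None of the 8 had stages free of overlap, beside 5.28% of genes. Leaving out E6.5 null 1 gave -2.18 (adjusted p = 0.00201), without E5.5 null 1 it was -1.22 (adjusted p = 0.128), and the call was lost on leaving out any library but E5.5 null 3 or E6.5 null 1 (10 of 12, adjusted p 0.0600 to 0.128). The null value thus stood close to the threshold.

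*Egfr* and its ligand gene *Hbegf* were also higher at E5.5 than at E6.5 in most libraries, without passing the call by edgeR. *Egfr* was at 25.7 and 5.49 CPM in E5.5 WT and at 31.6, 21.7, 4.85 and 35.6 CPM in E5.5 null, against medians of 0.951 CPM in E6.5 WT (0 to 12.9) and 1.81 CPM in E6.5 null (0 to 15). The groups overlapped in WT through E6.5 WT 3 and in null through E6.5 null 1 and null 4. The log2FC was -2.81 in WT (SE 1.30, adjusted p = 0.223) and -2.60 in null (SE 0.97, adjusted p = 0.157). Without E6.5 WT 3, *Egfr* passed the call in WT at -4.19 (adjusted p = 0.00628), and without E6.5 null 1 it passed in null at -3.39 (adjusted p = 0.0406). Without null 1 of both stages it was -3.18 (adjusted p = 0.0691). Other tools called *Egfr* lower, DESeq2 in WT (-4.07, adjusted p = 0.00113) and voom in WT (-3.98, adjusted p = 0.00192) and null (-3.55, adjusted p = 0.00501).

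*Hbegf* stood at 4.0 and 2.17 CPM in E5.5 WT and at 11.6, 7.17, 1.92 and 8.55 CPM in E5.5 null. At E6.5 its median was 0.711 CPM in WT (0 to 2.78) and 0.732 CPM in null (0 to 16.8). Its highest E6.5 value, again E6.5 null 1, exceeded all E5.5 values. The log2FC was -1.74 in WT (SE 1.12, adjusted p = 0.389) and -1.39 in null (SE 1.35, adjusted p = 0.685), and neither passed the call by edgeR. The null value was -3.26 (adjusted p = 0.127) without E6.5 null 1, and with voom it passed the call at -2.89 (adjusted p = 0.0130).

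The libraries with high *Errfi1* and *Egfr* were also those with high extraembryonic ectoderm markers. A group of 5 libraries had a marker sum over 200 CPM, a limit set after the values were seen, namely E5.5 WT 1, E5.5 null 1, null 2 and null 4, and E6.5 null 1. *Errfi1* was at 81.5 to 194 CPM in these 5 and at most 43.7 CPM in the other 30, and *Egfr* at 15 to 35.6 CPM against at most 12.9 CPM. For *Hbegf* the ranges met, at 4.0 to 16.8 CPM against 0 to 6.27 CPM. They also met for *Erbb3*, at 67.0 to 138 CPM (median 90.6) against 23.2 to 70.9 CPM (median 47.0). The ranges of *Erbb2*, *Lrig1*, *Lrig2* and *Lrig3* overlapped too. The other 2 E5.5 libraries, WT 2 and null 3, had *Errfi1* at 43.7 and 35.8 CPM and marker sums of 22.3 and 36.7 CPM. Their *Errfi1* lay above all 9 WT and 7 of 8 null libraries of E6.5, and their marker sums above all 9 WT libraries (3.94 to 15.2 CPM) and, for null 3, 7 of 8 nulls. Of the 6 markers, 0 to 2 were at 0 in each E5.5 library (*Esx1* in 3, *Ascl2* in 1 and *Plac1* in 1), while *Elf5* and *Wnt7b* were above 0 in all. Visceral endoderm markers moved with stage too, at 5228 to 10847 CPM at E5.5 other than null 1, and at 45.9 to 6347 CPM at E6.5. Whether these transcripts take part in the stage differences was not tested.

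**Figure D2:**
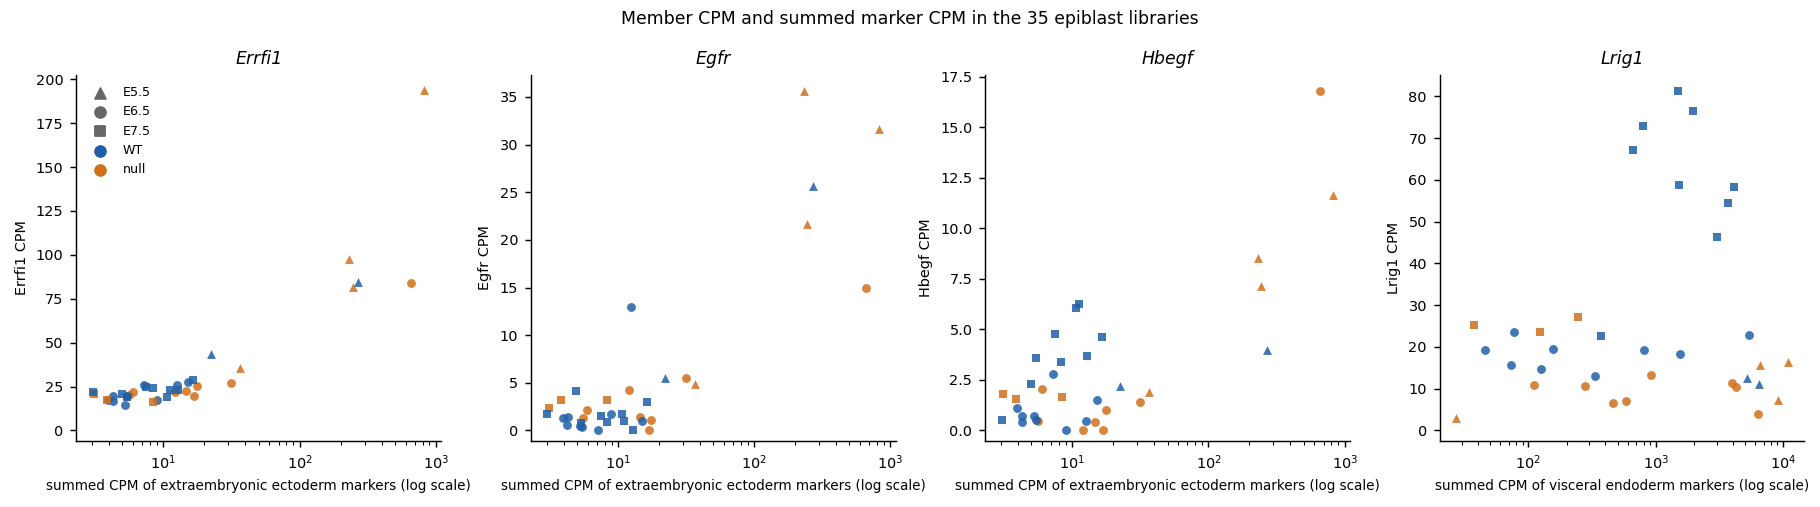
CPM of Errfi1, Egfr and Hbegf (linear axis) against the summed CPM of 6 extraembryonic ectoderm markers (log axis), and of Lrig1 against that of 8 visceral endoderm markers (log axis), in the 35 epiblast libraries; triangles mark E5.5, circles E6.5 and squares E7.5, blue is WT and orange null. The 5 libraries to the right of 200 CPM hold the 5 highest values of Errfi1 (81.5 to 194 CPM) and of Egfr (15 to 35.6 CPM).

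By edgeR none of the remaining members passed the call from E5.5 to E6.5 either. *Lrig1* went from 12.6 and 11.1 CPM in E5.5 WT to 12.9 to 23.5 CPM at E6.5, so that the WT stages did not overlap, with a log2FC of 0.66 (SE 0.25, adjusted p = 0.123). Non-overlap was seen for 2 of 9 members in this comparison, *Errfi1* and *Lrig1*, beside 17.1% of all genes. In null epiblasts *Lrig1* was at 2.86, 7.17, 16.5 and 15.6 CPM at E5.5 and 4.0 to 13.2 CPM at E6.5 (log2FC -0.20, SE 0.45, adjusted p = 0.895). For *Erbb2*, *Erbb3*, *Lrig2* and *Lrig3* the log2FCs lay between -0.52 and -0.24 in WT and between -0.66 and -0.21 in null, with adjusted p of 0.225 or more. The median over the members tested was -0.27 in WT and -0.64 in null, against 0.10 and 0.02 over all genes.

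**Figure D3:**
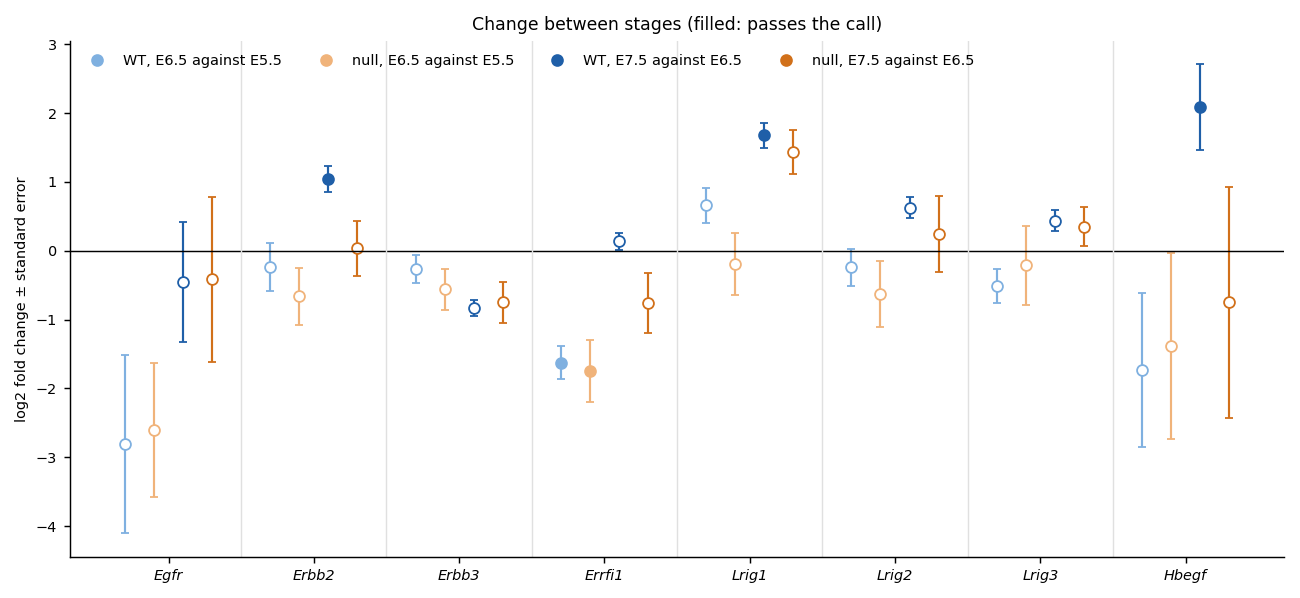
Log2 fold change between successive stages with its SE (bars), for 8 genes in WT (blue) and Stat3 null (orange) epiblasts, the earlier interval in pale and the later in dark colour; filled points pass the call. Errfi1 is filled for both genotypes from E5.5 to E6.5, and Lrig1, Erbb2 and Hbegf are filled for WT from E6.5 to E7.5.

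From E6.5 to E7.5, the interval of gastrulation, in WT epiblasts the inhibitor gene *Lrig1*, the partner receptor gene *Erbb2* and the ligand gene *Hbegf* all rose, and the neuregulin receptor gene *Erbb3* was lower by less than the fold of the call. These 3 calls, all higher, were among 8 members tested, beside 8.83% of 17191 genes called in either direction and 5.74% called higher. No member's stages were free of overlap, beside 2.41% of genes. The median log2FC of the 8 was 0.53, against 0.01 over all genes. Cell type markers moved over the same interval. Of 5 epiblast markers 3 were called lower, and their median sum was 5870 CPM at E6.5 and 1885 CPM at E7.5. Of 8 visceral endoderm markers 2 were called higher, and their median sum was 156 and then 1529 CPM, with none of either list at 0 in any of these libraries. The part of these markers in the changes of the members was not tested.

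*Lrig1* rose from 12.9 (lowest), 19.2 (median) and 23.5 CPM (highest) in 9 E6.5 WT epiblasts to 22.7, 58.8 and 81.3 CPM in 9 E7.5 WT epiblasts. Only E7.5 WT 3, at 22.7 CPM, lay within the E6.5 range, and the next lowest was 46.3 CPM. The log2FC was 1.68 (SE 0.18, adjusted p = 6.32e-06), a 3.20-fold rise, and 1.78 without E7.5 WT 3. The call held on leaving out each of the 18 libraries and under all 9 other alternatives. *Lrig1* lies on chromosome 6 of GRCm38 from 94604529 to 94700158 and shares 144 bases, 2.58% of its exons, with *Slc25a26* on the opposite strand. The strand setting of the counting is not given in the sources used here, so reads of that stretch cannot be assigned.

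*Erbb2* went from 13.4, 18.9 and 31.7 CPM (lowest, median, highest) to 25.4, 41.5 and 62.4 CPM. Here 8 of 9 E7.5 libraries exceeded all 9 E6.5 libraries, and E7.5 WT 3 was again the one that did not. Between stages the log2FC was 1.05 (SE 0.19, adjusted p = 0.000341), 2.06-fold. It stood near the limit of fold, falling to between 0.97 and 0.99 without E6.5 WT 3, E6.5 WT 9, E7.5 WT 4 or E7.5 WT 5, and to 0.95 with E6.5 libraries under 40000000 counts. *Erbb2* lies on chromosome 11 from 98412470 to 98437716, 2.45 Mb from *Stat3*, so alleles linked to the null allele and the loss of *Stat3* itself cannot be told apart for it.

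*Hbegf* rose from 0, 0.711 and 2.78 CPM to 0.517, 3.68 and 6.27 CPM, a log2FC of 2.08 (SE 0.63, adjusted p = 0.0178). The groups overlapped through E6.5 WT 2, the highest of its stage, and through E7.5 WT 3 (0.517 CPM) and WT 9 (2.32 CPM). The call was lost with all 35 libraries in 1 fit (2.09, adjusted p = 0.0943). The gene lies on chromosome 18 from 36504927 to 36515805. *Erbb3* moved the other way, from 39.0, 49.5 and 70.9 CPM to 23.8, 27.1 and 45.8 CPM, with a log2FC of -0.83 (SE 0.12, adjusted p = 6.82e-05), under the fold of the call. E7.5 WT 3 was the E7.5 library with the highest *Erbb3*.

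The *Lrig1* paralogs *Lrig2* and *Lrig3* were higher at E7.5 with an adjusted p under 0.05, but not the fold of the call. *Lrig2* went from a median of 17.1 CPM (14.3 to 32.8) to 29.5 CPM (19.8 to 34.8), a log2FC of 0.62 (SE 0.15, adjusted p = 0.00449). *Lrig3* went from 50.9 CPM (34.4 to 76.3) to 67.4 CPM (55.8 to 97.3), a log2FC of 0.44 (SE 0.15, adjusted p = 0.0371). The ranges overlapped for both genes. *Errfi1* (median 19.7 then 23.0 CPM) and *Egfr* (median 0.951 then 1.46 CPM) gave log2FCs of 0.14 (SE 0.13, adjusted p = 0.489) and -0.46 (SE 0.87, adjusted p = 0.757). The *Egfr* value rested on E6.5 WT 3 and was 0.91 without it.

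In null epiblasts over the same interval no member of 9 tested passed the call by edgeR, where 0.103% of 19460 genes did, 2 members had an unadjusted p under 0.05, beside 8.13% of genes, and DESeq2 called 1 (*Lrig1*). *Lrig1* was at 4.0 (lowest), 10.5 (median) and 13.2 CPM (highest) in 8 E6.5 nulls and at 23.7, 25.1 and 27.1 CPM in the 3 E7.5 nulls. The groups did not overlap, as was the case for 1 of 9 members and for 5.95% of all genes. Its log2FC was 1.43 (SE 0.31, adjusted p = 0.117). *Erbb3* had a log2FC of -0.75 (SE 0.30, adjusted p = 0.524).

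*Erbb2* was at 12.1, 19.0 and 58.4 CPM (lowest, median, highest) in E6.5 nulls and at 23.7, 25.8 and 23.3 CPM in E7.5 nulls, a log2FC of 0.03 (SE 0.40, adjusted p = 1.0). Its highest E6.5 value was in null 1, without which the log2FC was 0.38. *Hbegf* had -0.75 (SE 1.67), which became 1.11 without E6.5 null 1. The difference between the genotypes' changes was tested as an interaction in all 35 libraries, where 0.245% of 24126 genes and none of the 10 members passed the call, with 1 member at an unadjusted p under 0.05, beside 13.4% of genes, and none called by DESeq2. It was *Erbb2*, at -1.01 (SE 0.46, adjusted p = 0.321) and -0.66 without E6.5 null 1. *Lrig1* had an interaction of -0.25 (SE 0.42, adjusted p = 0.936), which does not show that its changes were alike.

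At E5.5 no gene of 18690 differed between null and WT by the call (0%), with 467 genes (2.5%) at an unadjusted p under 0.05, none of them a member, and 14 called by DESeq2. Of the 8 members tested, 5 had a higher and 3 a lower value in null, and all had an adjusted p of 0.999. *Hbegf* had the highest log2FC, 1.24 (SE 0.76), and *Lrig3* the lowest, -0.52 (SE 1.03). *Lrig3* was at 66.5 and 85 CPM in WT and at 57.2, 87.2, 64.5 and, in null 1, 2.80 CPM in null. Without null 1 its log2FC was -0.13, that of *Hbegf* 0.92, that of *Errfi1* 0.15 in place of 0.66, and that of *Lrig1* 0.14 in place of -0.18. None of the 8 members had groups that did not overlap, beside 11.7% of all genes.

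At E6.5 *Lrig1* was the member with the lowest unadjusted p between genotypes. WT epiblasts had 12.9 (lowest), 19.2 (median) and 23.5 CPM (highest), and null epiblasts 4.0, 10.5 and 13.2 CPM. A single null library, null 6 at 13.2 CPM, exceeded a single WT library, WT 2 at 12.9 CPM, and the groups were otherwise apart. This gave a log2FC of -0.99 (SE 0.22, unadjusted p = 0.000192, adjusted p = 0.333), 1.98-fold lower. edgeR called no gene at this stage (0% of 17095, with 1414 at an unadjusted p under 0.05, DESeq2 calling 28 and voom with sample weights 87). Among 8 members tested, *Lrig1* and *Errfi1* had an unadjusted p under 0.05, beside 8.27% of genes, and none had groups free of overlap, beside 0.0585%.

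By other tools the *Lrig1* difference had an adjusted p of 0.00793 (DESeq2, log2FC -0.98) and 0.0308 (voom, -0.81), in both cases under the fold of the call. It was -0.82 (adjusted p = 0.0580) within the 5 null and 6 WT libraries under 40000000 counts and -1.33 (adjusted p = 1.0) within the 3 and 3 above. Without E6.5 null 1 and WT 3 it was -0.98 (adjusted p = 0.0901). Visceral endoderm markers ran from 111 to 6347 CPM in null and from 45.9 to 5398 CPM in WT, and the lowest *Lrig1* was in null 3, the null with the highest sum. E6.5 WT 3, with 5398 CPM of these markers, had *Lrig1* at 22.8 CPM. Null 3 and null 2, with the lowest *Lrig1*, also had the fewest genes detected at E6.5, 15171 and 15531 against 17961 to 22310 in the other 15 libraries. Without null 3 the log2FC of *Lrig1* was -0.88 (adjusted p = 0.438), and without null 2 it was -0.93 (adjusted p = 0.324). The part of markers and genes detected in the difference was not tested.

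For *Errfi1*, *Egfr*, *Hbegf* and *Erbb2* the E6.5 values depended on single libraries. *Errfi1* was at 84.0 CPM in that library, 19.6 to 27.1 CPM in the other nulls and 14.5 to 27.7 CPM in WT. Its log2FC was 0.58 (SE 0.27, adjusted p = 0.578) with null 1 and 0.16 (adjusted p = 0.897) without. *Egfr* had 0.80 (SE 1.01), which was 0.04 without null 1, 2.17 (adjusted p = 0.377) without WT 3 and 1.40 without both. *Hbegf* had 1.62 (SE 1.12) with null 1 and -0.23 without, and *Erbb2* 0.17 (SE 0.27) with and -0.18 without. *Erbb3*, *Lrig2* and *Lrig3* had 0.15, -0.35 and -0.17, with adjusted p of 0.882 or more. Null 1 was the library with the highest *Errfi1*, *Egfr*, *Hbegf* and *Erbb2* of the E6.5 nulls.

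The paper describes null epiblasts as lagging behind WT in development, and states that this hampered assigning expression differences to the loss of the gene. Groups of the same embryonic day may thus differ in developmental stage as well as genotype, which the design does not separate. At E7.5, 1 of 9 members tested passed the call between genotypes, beside 1.17% of 19680 genes in either direction and 1.09% called lower. It was *Lrig1*, lower in null. WT epiblasts had 22.7 (WT 3), 58.8 (median) and 81.3 CPM (highest), and the 3 nulls 23.7, 25.1 and 27.1 CPM. The nulls lay below 8 of the 9 WT libraries, and WT 3 below the nulls. Null against WT, the log2FC was -1.21 (SE 0.29, adjusted p = 0.0489), 2.32-fold lower.

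This call sat at the threshold. Leaving out WT 3 gave -1.32 (adjusted p = 7.73e-05), while leaving out any of the other 11 libraries ended the call, with adjusted p from 0.0676 to 0.205 and log2FCs no nearer to 0 than -1.15. It also ended with all 35 epiblast libraries in 1 fit (-1.24, adjusted p = 0.175), with no filter on low counts (-1.20, adjusted p = 0.0644) and in the 3 WT and 3 null libraries that share a number (-1.15, adjusted p = 0.767, and -0.98 with the number as a replicate block, adjusted p = 0.896). Of the 10 alternatives other than leaving out 1 library, these were the 4 that ended it. The call was kept by DESeq2 (-1.24, adjusted p = 0.000186) and by voom (-1.25, adjusted p = 0.00148). The direction stayed lower in null under each of these settings.

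*Erbb2*, *Lrig2* and *Hbegf* had lower values in E7.5 null without passing the call. *Erbb2* was at 23.7, 25.8 and 23.3 CPM in null and at 25.4 (lowest, WT 3), 41.5 (median) and 62.4 CPM (highest) in WT, with a log2FC of -0.83 (SE 0.22, adjusted p = 0.0610). *Lrig2* was at 13.1, 17.7 and 20.9 CPM in null and at 19.8, 29.5 and 34.8 CPM in WT, with -0.71 (SE 0.19, adjusted p = 0.0603). *Hbegf* was at 1.55, 1.80 and 1.65 CPM in null and at 0.517, 3.68 and 6.27 CPM in WT, with -1.20 (SE 0.54, adjusted p = 0.236). The ranges of each gene met through WT 3, the lowest WT library for all 3 of them, and through no other WT library. Without WT 3 *Hbegf* passed the call (-1.34, adjusted p = 0.0237), and *Erbb2* (-0.90, adjusted p = 0.00362) and *Lrig2* (-0.77, adjusted p = 0.00664) had an adjusted p under 0.05 but not the fold. With all libraries, DESeq2 and voom gave adjusted p of 0.00527 and 0.00447 for *Erbb2*, again without the fold. For *Lrig2* they gave 0.00595 and 0.00239, also without it. *Hbegf* was not called by either (adjusted p = 0.139 and 0.112).

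*Egfr* had the opposite sign, at 3.21, 2.34 and 3.20 CPM in null and 0, 1.46 and 4.17 CPM (lowest, median, highest) in WT, with a log2FC of 0.86 (SE 0.81, adjusted p = 0.660). *Erbb3* (0.25, SE 0.20), *Lrig3* (-0.24, SE 0.15) and *Errfi1* (-0.30, SE 0.15) differed by less, with adjusted p of 0.589, 0.427 and 0.278. In all, 7 of the 9 members tested had a lower and 2 a higher value in null. Of the 9, 4 had an unadjusted p under 0.05, beside 19.7% of genes. Their median log2FC was -0.43, against -0.02 over all genes, and no member's groups were free of overlap, beside 4.19% of genes. In WT from E6.5 to E7.5, *Lrig1*, *Erbb2*, *Lrig2* and *Hbegf* had log2FCs of 1.68, 1.05, 0.62 and 2.08. *Lrig3* and *Errfi1* had 0.44 and 0.14, and *Erbb3* and *Egfr* had -0.83 and -0.46, the last resting on E6.5 WT 3. Each of these signs is opposite to that of null against WT at E7.5. Whether a delay of null epiblasts accounts for the E7.5 differences was not tested.

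Cell type markers also differed between the E7.5 groups. The 5 epiblast markers (*Pou5f1*, *Sox2*, *Utf1*, *Otx2* and *Dnmt3b*) summed to 4267 to 5797 CPM in null and to 1081 to 2987 CPM in WT other than WT 3, which had 5737 CPM. The 8 visceral endoderm markers summed to 37.5 to 246 CPM in null and to 370 to 4126 CPM in WT, with none at 0 in any E7.5 library and 1 of 8, *Afp*, called lower. The extraembryonic ectoderm sum was 3.10 to 8.35 CPM in null and 3.03 to 16.5 CPM in WT. That of 6 primitive streak and mesoderm markers was 438 to 733 CPM in null and 160 to 401 CPM in WT. Taken singly, 4 of these 6 had a higher and 2 a lower value in null, and none was called. WT 3, the lowest WT library in *Lrig1*, *Erbb2*, *Lrig2* and *Hbegf*, had the highest epiblast sum of the WT. The part of these markers in the differences of the members was not tested.

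**Figure D4:**
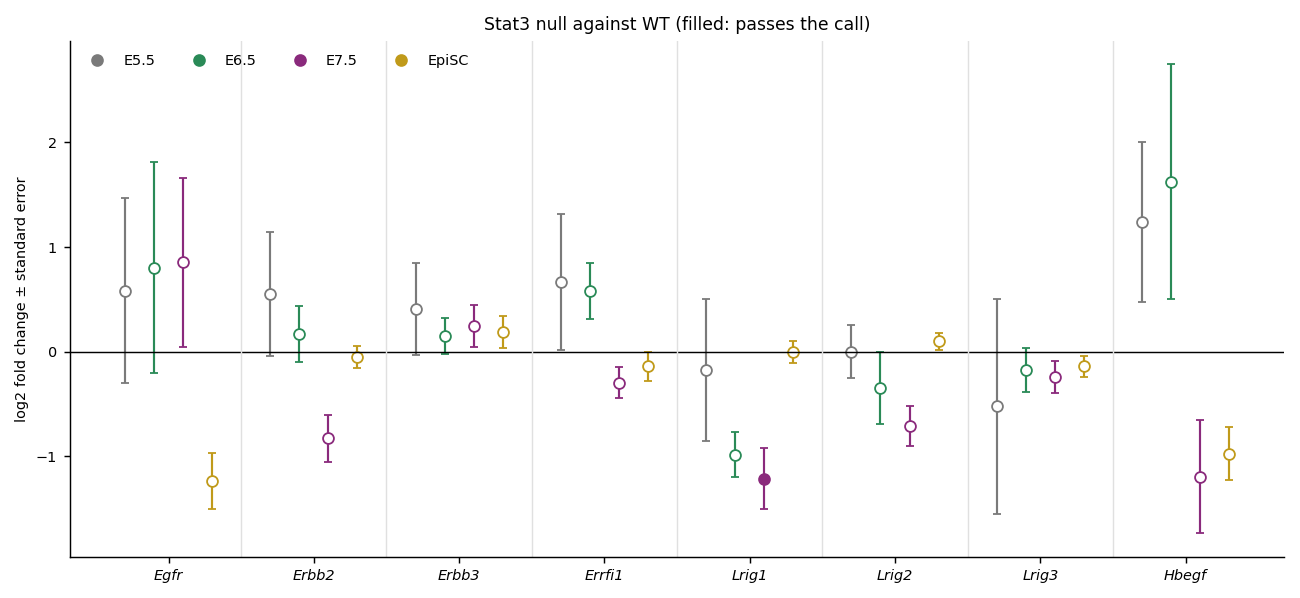
Log2 fold change of Stat3 null against WT with its SE (bars) for 8 genes at the 3 stages and in EpiSCs; the filled point passes the call and 0 is drawn as a line. Lrig1 at E7.5 (-1.21) is the filled point, its E6.5 value (-0.99) lies close to it, and its EpiSC value lies at 0.

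In EpiSCs none of 9 members tested passed the call by edgeR, beside 0.106% of 20736 genes, with 2 members at an unadjusted p under 0.05, beside 9.09% of genes, and 1 called by DESeq2. *Egfr* was that 1, at 6.33 and 6.10 CPM in the null lines 2 and 6 and at 10.8 and 18.5 CPM in the WT lines 8 and 13. Its log2FC was -1.24 (SE 0.27, adjusted p = 0.221 by edgeR and 0.000765 by DESeq2, at -1.23), -1.57 (adjusted p = 0.00905) without WT 8 and -0.80 (adjusted p = 0.183) without WT 13. In these last fits the lone WT line is assumed to vary like the null lines. *Hbegf* was the other, at 1.5 and 1.73 CPM in null and 2.94 and 3.43 CPM in WT, a log2FC of -0.98 (SE 0.26, adjusted p = 0.274). Null lines lay below WT lines for both genes.

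*Lrig1* was called lower in null epiblasts at E7.5 alone. In EpiSCs it was at 28.0 and 24.8 CPM in null and 27.5 and 25.4 CPM in WT, a log2FC of -0.0044 (SE 0.11). *Erbb2* was at 18.1 and 17.8 CPM in null and 18.9 and 18.4 CPM in WT (-0.05, SE 0.11), and *Lrig2* at 36.4 and 35.7 CPM against 33.9 and 33.4 CPM (0.10, SE 0.08). *Erbb3*, *Lrig3* and *Errfi1* lay between -0.14 and 0.19. The groups did not overlap for 5 of the 9 members, beside 39.3% of all genes. The sums of extraembryonic ectoderm and visceral endoderm markers were at most 2.82 and 1.58 CPM in these lines.

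*Erbb4*, the second neuregulin receptor gene, and *Areg*, which codes for the EGFR ligand amphiregulin, were at or near nothing in most epiblasts. Both had 0 counts in all 6 E5.5 libraries. *Erbb4* then was at 0 in 6 of 8 null and 7 of 9 WT libraries of E6.5, with 4.6 CPM in null 2 and at most 0.948 CPM in any other. At E7.5 it was at 0.476, 0.0807 and 0.291 CPM in null, and in WT at 0 in 3 of 9, 0.113 CPM at the median and 2.1 CPM at the highest. *Areg* was above 0 in 1 of 8 null (0.285 CPM) and 1 of 9 WT (0.533 CPM) libraries at E6.5 and in 1 of 9 WT (0.435 CPM) at E7.5, and at most 0.124 CPM in EpiSCs. No fold is given for *Areg* or for *Erbb4* against E5.5. The floor was set at 3 counts, and at these depths a count of 0 does not show that a transcript was absent. *Erbb4* in EpiSCs was at 0.266 and 0.498 CPM in null and at 0.296 and 1.40 CPM in WT, a log2FC of -1.14 (SE 0.78, adjusted p = 0.776).

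Other genes of the pathway were read from 4 lists, likewise chosen with earlier results known. In the WT comparison of E6.5 with E5.5, 2.63% of all genes were called lower. Of 9 other EGF family ligands, 6 were tested in it and 1 was called, the neuregulin gene *Nrg1*, lower at E6.5 (log2FC -3.28, SE 0.68, adjusted p = 0.0106, from 51.2 and 4.83 CPM to 0.308 to 5.01 CPM). Of 4 genes of ligand shedding, 2 were called lower there, the protease gene *Adam10* (-1.16, SE 0.33, adjusted p = 0.0422) and the iRhom gene *Rhbdf2* (-1.06, SE 0.26, adjusted p = 0.0233). None of 7 genes of receptor traffic or of 6 adaptors was called in it. In each case the null comparison of the same stages called none. The 51.2 CPM of *Nrg1* was in E5.5 WT 1, which is among the libraries with an extraembryonic ectoderm sum over 200 CPM. E5.5 WT 2, at 4.83 CPM, lay within the E6.5 range of *Nrg1*. No fit without E5.5 WT 1 is given for *Nrg1*, *Adam10* or *Rhbdf2*.

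Between genotypes the only call in these lists was an adaptor gene, *Gab1*, whose product links receptors to PI3K. It was lower in E7.5 null at 14.9, 15.7 and 22.3 CPM against 20.0 CPM in WT 3 and 35.8 to 63.4 CPM in the other 8 WT, a log2FC of -1.35 (SE 0.27, adjusted p = 0.0330). The ubiquitin ligase gene *Cbl*, whose product marks activated receptors for removal, was higher there (0.47, SE 0.10, adjusted p = 0.0330), under the fold of the call. Fits leaving out 1 library are not given for *Gab1* or *Cbl*. Over all genes such fits gave 0 (without null 2) to 1105 (without WT 3) calls at E7.5, in place of 231. Of the 6 adaptors 1, of the 7 traffic genes 0, of the 4 shedding genes 0 and of 6 ligands tested 0 were called at E7.5, beside 1.17% of all genes. None of the lists held a call at E5.5, at E6.5 or in EpiSCs, nor from E6.5 to E7.5. The most abundant gene of each list in E6.5 WT epiblasts was *Tgfa* among ligands (0.671 CPM per kilobase), *Adam17* in shedding (4.99), *Usp8* in traffic (28.5) and *Ptpn11* among adaptors (19.8).

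Over the 35 epiblast libraries, the genes most like 7 of the members in log2 CPM were found among 15108 genes with a mean of at least 1 CPM. The closest to *Lrig1* were *Notch1* (Pearson's r 0.897) and *Sh3pxd2a* (0.890), to *Errfi1* *Efhd2* (0.960) and *Ddah1* (0.944), and to *Hbegf* *Bmp4* (0.903) and *Anxa5* (0.859). *Erbb2* was most like *Cald1* (0.851), *Erbb3* most like *Plec* (0.881), *Lrig2* most like *Irgq* (0.934) and *Lrig3* most like *Pkdcc* (0.943). Among the members themselves, *Lrig1* and *Erbb3* were the most opposed (r = -0.724), and the highest r were 0.665, of *Errfi1* with *Erbb3*, and 0.660, of *Errfi1* with *Egfr*. These values are across libraries that share stages, depth and composition, and are given with no test.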

How the data were processed

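RNA from 35 hand-dissected epiblasts (low-input SMARTer stranded total RNA libraries) and 4 EpiSC lines (ribosomal RNA depletion, NEBNext libraries) was sequenced. Reads were trimmed with Trim Galore, aligned to GRCm38 with HISAT2 and counted per gene with StringTie. The authors deposited the gene counts without normalization. The annotation version and strand setting are not given in the sources used here.

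The 10 genes, the pathway and marker lists and the alternatives were chosen with earlier results of these data known. All members, *Stat3*, *Pou5f1*, list genes that passed the call, the list gene highest per kilobase in E6.5 WT and the genes most alike in pattern were named, except for 1 result that is not reported here. Groups came from the labels. Replicates are separate embryos or lines.

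Genes were tested two-sided with edgeR 4.0.16 in R 4.3.3 (TMM, filterByExpr with minimum count 10 and total 15, robust quasi-likelihood, Benjamini-Hochberg over all genes tested) in the libraries of each pair of groups. The interaction used all 35. A standard error is the log2 fold change divided by the square root of F. CPM are TMM-normalized within each table, and exon lengths came from GENCODE vM21, in which 47224 of 47643 gene IDs were found. Promoters came from RefSeq (GRCm38.p6). Alternatives were DESeq2 1.42.0, its size factors in edgeR (RLE), limma 3.58.1 voom with sample weights, other filters, leaving out genes over 1% of counts or the 4 libraries that stand apart, 1 fit of all libraries, depth groups, the replicate block and leaving out each library. The tests were tried on simulated counts. No libraries duplicated another (highest r 0.984). Depth limits precision, 3 counts being the floor, and such floors cover counting error only.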

Additional observations from a re-analysis of the deposited data

Results flagged for a closer look

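The 38 groups looked at had 4 to 10 libraries and a member over 3 counts in at least 1 of them. The gap of the highest or lowest library to its neighbour was compared, on log2(CPM + 0.1), with Dixon's limit. For normally distributed values chance passes this limit in about 1 of 20 groups. It was passed in 11, but that rate does not hold for groups mostly at 0. Where all libraries but 1 were at 0, as for *Areg*, passing was fixed in advance. *Errfi1* was high in E6.5 null 1 (84.0 CPM), and *Lrig3* low in E5.5 null 1 (2.80 CPM). *Lrig1* (22.7 CPM) and *Hbegf* (0.517 CPM) were low in E7.5 WT 3. *Lrig2* was low in E6.5 null 3 (1.22 CPM) and high in E6.5 WT 1 (32.8 CPM). *Egfr* was listed at 0 in E7.5 WT 6. *Erbb4* was high in E6.5 null 2 (4.6 CPM), and *Areg* was above 0 alone in E6.5 null 8 (0.285 CPM), E6.5 WT 9 (0.533 CPM) and E7.5 WT 9 (0.435 CPM). No member's genotype difference was shown to differ between E7.5 and E6.5, and causes were not tested.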

How the results depend on the processing

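Of 1623 values of members under an alternative, 79 had the other sign, of which 23 moved by over 1 standard error or carried a call. The cause was not tested for any of them. At E7.5 the number of members called between genotypes was 0 in place of 1 with all 35 libraries in 1 fit, with no filter, and in the libraries of shared numbers without and with the replicate block, 2 without the 4 libraries that stand apart, and 0 to 2 on leaving out 1 library (2 without WT 3). In EpiSCs it was 1 in place of 0 with DESeq2, and 0 to 1 on leaving out 1 line. From E5.5 to E6.5 in WT it was 2 in place of 1 with DESeq2, voom or without the 4 libraries, 3 with E6.5 libraries under 40000000 counts, and 0 (without E5.5 WT 1) to 2 (without E6.5 WT 3) on leaving out 1. In null it was 3 in place of 1 with voom or under 40000000 counts, 0 with no filter, and 0 to 2 (without E6.5 null 1) on leaving out 1. From E6.5 to E7.5 in WT it was 2 in place of 3 with all 35 libraries (*Hbegf* lost) or under 40000000 counts (*Erbb2* lost), and 2 to 3 on leaving out 1. In null it was 1 in place of 0 with DESeq2, voom, all 35 libraries or under 40000000 counts, and 0 to 1 (without E6.5 null 3) on leaving out 1.

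Log2 fold changes that reversed, at E6.5 between genotypes, were *Erbb2* (-0.28 under 40000000 counts, -0.24 without the 4 libraries, and -0.18 without null 1 to 0.26 without null 3), *Erbb3* (-0.060 without the 4), *Hbegf* (-0.23 with DESeq2, -0.36 with the replicate block, -0.32 without the 4, and -0.23 without null 1 to 2.05 without WT 2) and *Lrig3* (0.12 under 40000000 counts). *Erbb3* at E7.5 was -0.0041 in the shared numbers and -0.0021 with the block. From E6.5 to E7.5 *Egfr* in WT was 0.86 with DESeq2, 0.89 under 40000000 counts or without the 4, and -0.76 to 0.91 on leaving out 1 (E7.5 WT 9, E6.5 WT 3), and *Hbegf* in null was 1.01 with DESeq2, 1.0 with voom, 1.11 without the 4, and -0.95 to 1.11 on leaving out 1 (E6.5 null 2, null 1). Leaving out 1 library gave *Erbb3* -0.014 (WT 8) to 0.42 (WT 13) and *Errfi1* -0.29 (WT 8) to 0.029 (WT 13) in EpiSCs, and, from E5.5 to E6.5 in WT, *Erbb2* -0.78 to 0.50 and *Erbb3* -0.59 to 0.044 (E5.5 WT 2, E5.5 WT 1). The block changed no other call. Samples of one number had r of -0.27 to 0.23 over 13 pairs. At E6.5, 4 of 8 were over 0.1, 5 of 8 were closest to their own number, and numbers 1 to 3 are in both genotypes the libraries over 40000000 counts, a hint from the data and not the design, while at E7.5 0 of 3 were closest and 2 pairs at E5.5 cannot tell. Since not every pair was over 0.1 the numbers were not taken to pair the samples, and EpiSC lines share none.

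The fits with E6.5 libraries under 40000000 counts, and those of the shared numbers without the block, were chosen after seeing the data. Counts over all genes that differed by over 1.5 times were these. Between genotypes E5.5 had 14 calls with DESeq2 and 5 with all 35 libraries in 1 fit in place of 0. E6.5 had 28 with DESeq2, 87 with voom, 16 under 40000000 counts and 4 without the 4 libraries in place of 0. E7.5 had 990 with DESeq2, 1190 with voom, 1105 without the 4, 11 with all 35 in 1 fit and 0 in the shared numbers with or without the block in place of 231. EpiSCs had 205 with DESeq2 and 75 with no filter in place of 22. From E5.5 to E6.5 WT had 1936 with DESeq2, 2156 with voom, 2029 without the 4 and 2698 under 40000000 counts in place of 1070, and null 1032, 1906, 820 and 1367 in that order, and 1478 with all 35 in 1 fit, in place of 363. From E6.5 to E7.5 WT had 2606 with voom and 2805 with no filter in place of 1518, and null 296 with DESeq2, 434 with voom, 32 without the 4, 181 under 40000000 counts and 104 with all 35 in 1 fit in place of 20. The interaction had 520 with DESeq2, 1493 with voom, 900 without the 4, 432 under 40000000 counts, 105 at a mean count of at least 50 and 37 with no filter in place of 59. Leaving out 1 library gave 0 (without null 2) to 1105 (without WT 3) calls at E7.5, 26 to 159 (without WT 8) in EpiSCs, 102 (without E5.5 WT 1) to 2029 (without E6.5 WT 3) in WT and 145 (without E5.5 null 2) to 723 (without E6.5 null 1) in null from E5.5 to E6.5, 0 (without E7.5 null 1) to 32 (without E6.5 null 1) in null from E6.5 to E7.5, and 0 (without E7.5 null 1) to 338 (without E6.5 WT 3) for the interaction.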
